A study of Homo sapiens with 4 samples.

Results

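The genes described here are 9 non-collagen genes that mark the osteoblast, the bone-forming cell: RUNX2, SP7, DLX5, ALPL, IBSP, SPP1, DMP1, BGLAP and SPARC. They were found by gene symbol in a table of 61806 genes, and 9 of 9 matched 1 entry each. The rule used symbols alone.

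RNA was measured in JJ012, a human chondrosarcoma (cartilage-forming tumor) cell line, and in 143B, a human osteosarcoma (bone-forming tumor) cell line. Both were kept detached from any surface, and each line was either left untreated (control) or given melatonin at 1 mM for 72 h. With 1 poly(A) library per condition, no value here has a replicate, and the comparisons within a line or within a treatment carry no test. Intervals cover counting error only, not the variation between cultures, and a difference outside its interval separates 2 libraries, not 2 conditions. Each line stands for 1 tumor, so a difference between them is not a difference between tumor types.

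Osteoblasts arise when RUNX2, the master transcription factor of the lineage, is followed by SP7 (osterix). DLX5 is a homeodomain factor that acts on both genes. The maturing cell makes ALPL, the tissue-nonspecific alkaline phosphatase that frees phosphate for mineral, and then secretes matrix proteins that bind calcium or collagen: bone sialoprotein (IBSP), osteopontin (SPP1), dentin matrix protein (DMP1, mainly an osteocyte product), osteocalcin (BGLAP) and osteonectin (SPARC). SPP1 and SPARC are also made by many other cells, tumor cells among them, whereas SP7, IBSP, BGLAP and DMP1 are far more restricted to bone and tooth.

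IBSP, DMP1 and SPP1 lie side by side on chromosome 4 with DSPP and MEPE, the other genes of the same family of acidic matrix proteins. The sequences before 3 of these genes are shown because the neighbors gave such unlike values. They are RefSeq sequences of build GRCh38.p14, plus strand, within the 250 bases before each RefSeq start, and the SPP1 stretch stops before the first exon annotated in GENCODE 29. Capitals mark the RUNX core (TGTGGT, here as its reverse complement ACCACA) and the TATA box (TATAAA, here as its reverse complement TTTATA).
SPP1, chr4:87975464-87975649: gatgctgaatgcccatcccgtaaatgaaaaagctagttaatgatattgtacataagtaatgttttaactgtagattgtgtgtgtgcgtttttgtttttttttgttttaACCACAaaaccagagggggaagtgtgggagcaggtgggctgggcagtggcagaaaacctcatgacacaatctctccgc
IBSP, chr4:87799304-87799553: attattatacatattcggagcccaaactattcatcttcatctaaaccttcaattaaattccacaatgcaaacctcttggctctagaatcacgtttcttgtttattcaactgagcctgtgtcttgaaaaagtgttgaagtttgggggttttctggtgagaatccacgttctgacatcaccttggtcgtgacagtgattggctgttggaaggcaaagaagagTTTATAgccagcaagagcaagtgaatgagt
DMP1, chr4:87650030-87650279: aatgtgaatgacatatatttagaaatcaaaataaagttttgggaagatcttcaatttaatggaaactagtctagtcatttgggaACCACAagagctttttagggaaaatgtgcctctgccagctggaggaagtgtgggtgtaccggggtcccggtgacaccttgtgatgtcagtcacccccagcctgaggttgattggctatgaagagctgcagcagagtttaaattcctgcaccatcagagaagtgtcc

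The RUNX core began 142 bases before the start of SPP1 and 166 bases before that of DMP1, and the TATA box 30 bases before that of IBSP. RefSeq entries were found for 7 of the 9 genes. Over their windows of 250 bases, searched on both strands, the RUNX core was found before 4 genes (BGLAP, DMP1, RUNX2 and SPP1) and in 11% of 35116 promoters, while the TATA box was found before 3 genes (ALPL, BGLAP and IBSP) and in 10.7% of promoters. The homeodomain core TAATTA was found before 0 of the 7 genes and in 4.35% of promoters. The other motifs searched were the CCAAT box (2 of 7 genes, 32% of promoters) and the GC box (3 of 7, 42.6%). The E box (6 of 7, 61.8%) and the AP-1 site (1 of 7, 6.57%) were searched too. A gene was counted if any of its windows matched, and ALPL and RUNX2 have more than a single window. The shares of promoters are per window, so the numbers of genes are not on the same footing. These are matches of letters in a window and do not show binding.

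The libraries held between 15889564 and 19218343 counts, so that 3 counts, the limit a count of 0 allows, came to 0.156 to 0.189 CPM (counts scaled to the library total). Mitochondrially encoded genes took 6.78% of the JJ012 control library and 4.35% of the melatonin library, against 1.63% and 2.46% in 143B.

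Neither line carried the full set. A level of 1 FPKM (counts normalized to exonic length and library total) or more was reached by 3 of the 9 genes in each JJ012 library and by 4 of 9 in each 143B library. SPARC and RUNX2 were at that level in 4 of 4 libraries, SPP1 in the JJ012 libraries, and DLX5 and BGLAP in the 143B libraries. ALPL, SP7, IBSP and DMP1 stayed below it in 4 of 4 libraries. With exonic lengths from GENCODE 29 in place of those deposited, SPP1 also reached it in 143B (1.25 FPKM in the control and 1.66 FPKM after melatonin), and BGLAP in melatonin-treated 143B was at 0.979 FPKM. With SP7, IBSP and DMP1 at 8 counts or fewer in each library, the name osteoblast does not describe either line by these markers, and it is used here for the list of genes only.

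**Figure D1:**
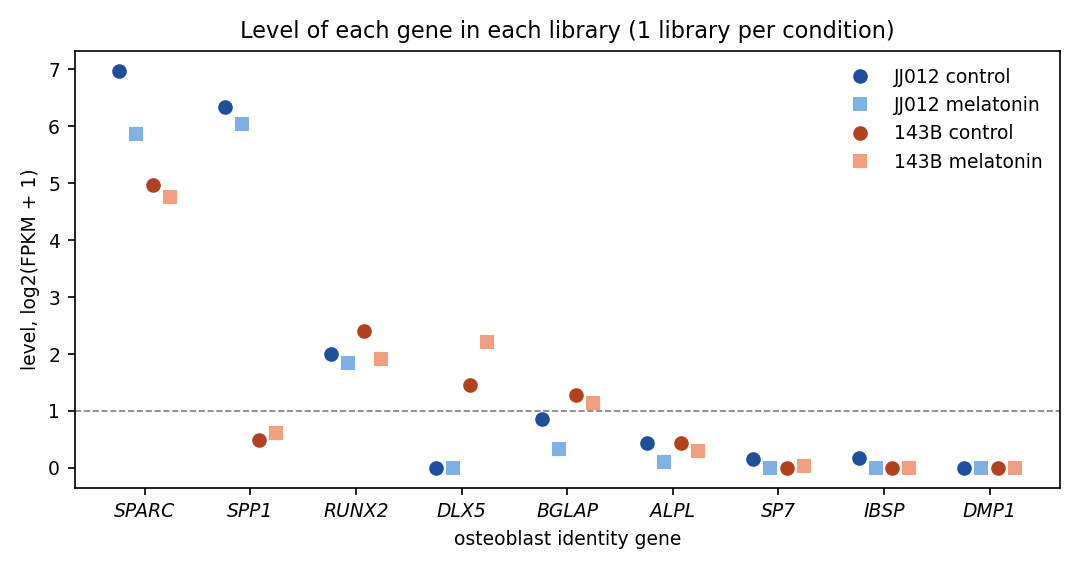
Levels of the 9 genes as log2(FPKM + 1), each point 1 library (circles, control, and squares, melatonin; blue, JJ012, and orange, 143B), with the dashed line at 1 FPKM. SPARC was at 26.05 FPKM or more in each library, SPP1 at 64.50 FPKM or more in JJ012 and at 0.53 FPKM or less in 143B, and DMP1 at 0.

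RUNX2 (ENSG00000124813, chromosome 6, 45328157 to 45664349, plus strand) gave 475 counts in untreated and 343 in treated JJ012, and 557 in untreated and 386 in treated 143B. The levels were 3.02, 2.59, 4.28 and 2.75 FPKM in the same order. The 143B control was the highest library, and the other levels lay close together, with RUNX2 in melatonin-treated 143B not separated from melatonin-treated JJ012 (log2 ratio of CPM 0.08, 95% counting interval -0.13 to 0.30). RUNX2 overlaps SUPT3H on the opposite strand, which had 85, 66, 357 and 272 counts, and the strand setting of the counting is not given in the sources used here, so the counts of this pair cannot be told apart with certainty.

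SP7 (ENSG00000170374, chromosome 12, 53326575 to 53345315, minus strand), the zinc finger factor downstream of RUNX2, gave 8 counts in untreated and 0 in treated JJ012, and 0 in untreated and 1 in treated 143B. Its highest level was 0.12 FPKM. With 8 counts at most, SP7 was barely detected in untreated JJ012 and at or under the 3-count limit elsewhere.

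DLX5 (ENSG00000105880, chromosome 7, 97020396 to 97024950, minus strand) was at 0 counts in both JJ012 libraries, which allows a level of up to 0.156 CPM in the control and 0.186 CPM after melatonin. In 143B it gave 48 counts untreated and 109 treated, or 1.73 and 3.64 FPKM. It was the one gene of the 9 with counts in 143B and none in JJ012. Its neighbor DLX6, whose end lies 9356 bases from DLX5 and which was named after its values were seen, had more counts in JJ012 (153 and 93) than in 143B (34 and 39). DLX6 overlaps DLX6-AS1 on the opposite strand (416, 170, 181 and 190 counts), so its counts are uncertain.

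ALPL (ENSG00000162551, chromosome 1, 21509397 to 21578410, plus strand) gave 20 counts in untreated and 4 in treated JJ012, and 17 in untreated and 12 in treated 143B. The levels ran from 0.08 to 0.36 FPKM. The osteoblast phosphatase was therefore detected in each library and low in each, and the controls did not differ beyond counting error (log2 ratio of CPM, 143B over JJ012, 0.04, interval -0.98 to 1.05).

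Among the matrix genes, DMP1 (ENSG00000152592, chromosome 4, 87650280 to 87664361, plus strand) was at 0 counts in 4 of 4 libraries. IBSP (ENSG00000029559, chromosome 4, 87799554 to 87812435, plus strand) gave 4 counts in the JJ012 control and 0 elsewhere. SPP1 (ENSG00000118785, chromosome 4, 87975667 to 87983532, plus strand) lies 128853 bases beyond the end of MEPE in the same cluster. It gave 11061 counts in untreated and 7549 in treated JJ012, and 46 in untreated and 66 in treated 143B. The levels of this integrin-binding phosphoprotein were 79.39, 64.50, 0.40 and 0.53 FPKM. Both JJ012 libraries were thus high and both 143B libraries low, although in 143B the gene was still above the 3-count limit. Over the 375004 bases of the cluster, 5 protein-coding genes are annotated, and the 4 other than SPP1 had at most 4 counts in any library.

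**Figure D2:**
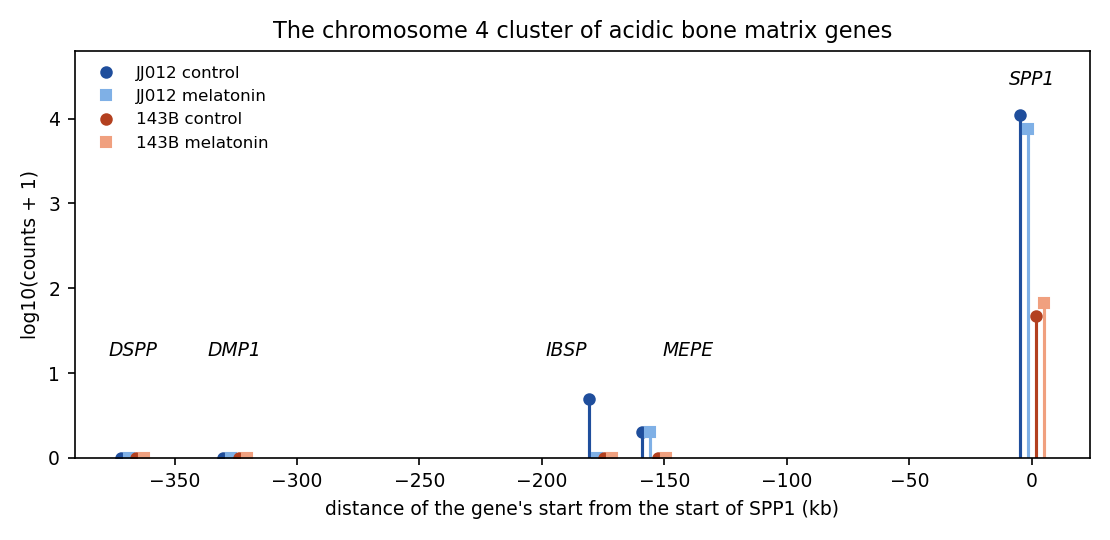
Counts, as log10(counts + 1), of the 5 genes of the chromosome 4 cluster in each library, placed by the distance of their starts from that of SPP1 in kilobases, with the 4 libraries drawn side by side at each gene. SPP1 stands at 11061 and 7549 counts in JJ012, and no other gene of the cluster passes 4 counts.

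BGLAP (ENSG00000242252, chromosome 1, 156242184 to 156243317, plus strand), the vitamin K-dependent osteocalcin, gave 15, 4, 22 and 20 counts in the order JJ012 control, JJ012 melatonin, 143B control and 143B melatonin. The levels were 0.81, 0.26, 1.44 and 1.21 FPKM. Melatonin-treated JJ012 was the lowest library. The controls were not separated beyond counting error (log2 ratio of CPM, 143B over JJ012, 0.83, interval -0.19 to 1.88). BGLAP overlaps the readthrough gene PMF1-BGLAP on the same strand (6, 6, 2 and 11 counts), so its values are uncertain.

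SPARC (ENSG00000113140, chromosome 5, 151661096 to 151686975, minus strand), which binds collagen and calcium, gave 11129 counts in untreated and 4274 in treated JJ012, and 2229 in untreated and 2075 in treated 143B. The levels were 124.78, 57.05, 30.23 and 26.05 FPKM. It was the gene of the 9 with the highest level in 3 of 4 libraries, and it was highest in untreated JJ012, where it ranked 214 among 19838 protein-coding genes by FPKM against 1318 in melatonin-treated 143B. SPP1 and SPARC together made up 97.7% and 97.1% of the counts of the 9 genes in JJ012, and 77.9% and 80.2% in 143B.

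Which of SPP1 and SPARC led depended on the library and on the gene length. In FPKM, SPP1 over SPARC was 0.636 in untreated and 1.13 in treated JJ012, and 0.0132 in untreated and 0.0204 in treated 143B. The length deposited for SPP1 was 7250 bases, while the merged exons of GENCODE 29 span 2321 bases. With GENCODE 29 lengths for both genes the ratio in the JJ012 control became 2.07, so the order of these levels in that library is not fixed.

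The first comparison asked how the 9 genes stood after melatonin in JJ012. SPARC was lower with melatonin, and none of the 9 was higher at the threshold. Fold changes were taken as log2 of FPKM + 1 over genes with at least 1 FPKM in either library, and 0.58 or more in size was counted as a difference. Of the 9 genes, 3 could be read in this way and 1 was lower, where 38.2% of 15794 genes differed (19.6% higher and 18.6% lower). A count of 1 in 3 is near that background. In this and the later comparisons, a gene with at least 1 FPKM in only a single library could differ only toward that library. The median was -0.30 over the 3 genes and 0.01 over the tested genes.

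For SPARC the log2 fold change was -1.12, a 2.19-fold lower CPM (log2 ratio of CPM -1.13, interval -1.18 to -1.08), from 11129 to 4274 counts. It stayed below -0.58 in each of the 10 alternative settings. In such bulk libraries, fewer SPARC-expressing cells and less SPARC RNA per cell cannot be told apart. SPP1 had a log2 fold change of -0.30, and its log2 ratio of CPM was -0.30 (interval -0.34 to -0.26). The osteopontin libraries thus differed beyond counting error by less than the threshold. RUNX2 had a log2 fold change of -0.16 with an interval for CPM of -0.42 to -0.01, and its sign turned with TPM (FPKM rescaled to a common sum, 0.05), a scale on which the median of the tested genes moved to 0.21.

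The genes of few counts were below the level filter in JJ012. The log2 ratio of CPM was -2.07 for ALPL (interval -4.08 to -0.49) from 20 and 4 counts. For BGLAP it was -1.66 (interval -3.71 to -0.01) from 15 and 4 counts. SP7 went from 8 counts to 0, or 2.24-fold lower with 0 set to the 3-count limit per library, while the counting interval of the log2 ratio reached up to -0.52. All 3 were lower in the melatonin library, and so were most weakly covered genes. Of 2673 protein-coding genes with 4 to 30 counts over both JJ012 libraries, 70.5% were lower with melatonin, and the log2 ratio of their summed CPM was -0.70. In 143B this share was 52.4% of 2017 genes and the log2 ratio was -0.06. The part of this shift in the values of ALPL, BGLAP and SP7 was not tested. IBSP, at 4 counts and 0, could not be separated.

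In JJ012 the log2 fold change also rose with exonic length (Spearman 0.40 over 11534 protein-coding genes, which share the libraries and are not independent), and its part in these values was not tested. With the running median over length removed, the median of the 3 genes was -0.48. The interval for CPM lay outside 0 for 3 of the 3 tested genes, beside 72.2% of all tested genes.

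In 143B the comparison had another member outside the threshold. DLX5 was higher with melatonin, and none of the 9 was lower at the threshold. Of the 4 genes that passed the filter, 1 was higher and 0 lower, where 12.7% of 14135 genes differed (6.09% higher and 6.65% lower). The median was -0.18 over the 4 genes and 0.03 over the tested genes.

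DLX5 had a log2 fold change of 0.77 on the FPKM + 1 scale and a 2.10-fold higher CPM (log2 ratio 1.07, interval 0.57 to 1.59), from 48 to 109 counts. The homeodomain gene was below a threshold of 1 on the FPKM + 1 scale and left the comparison under a filter of 5 FPKM. RUNX2 had a log2 fold change of -0.49 and a log2 ratio of CPM of -0.64 (interval -0.83 to -0.45), from 557 to 386 counts. It was under the threshold as measured in FPKM + 1 and past it with a pseudocount of 0.1 FPKM, TPM, CPM or TMM-scaled CPM. Both transcription factors therefore differed beyond counting error in 143B, DLX5 upward and RUNX2 downward.

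In 143B, none of the matrix genes was past the threshold. SPARC had a log2 ratio of CPM of -0.21 (interval -0.30 to -0.13). SPP1 had 0.41 (interval -0.16 to 0.99) and BGLAP -0.25 (interval -1.20 to 0.69). ALPL had -0.61 (interval -1.81 to 0.54). The last 3 intervals include 0, and they are wide enough to hold a 1.5-fold change in either direction for BGLAP. The interval lay outside 0 for 3 of the 4 tested genes, beside 52% of all tested genes.

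**Figure D3:**
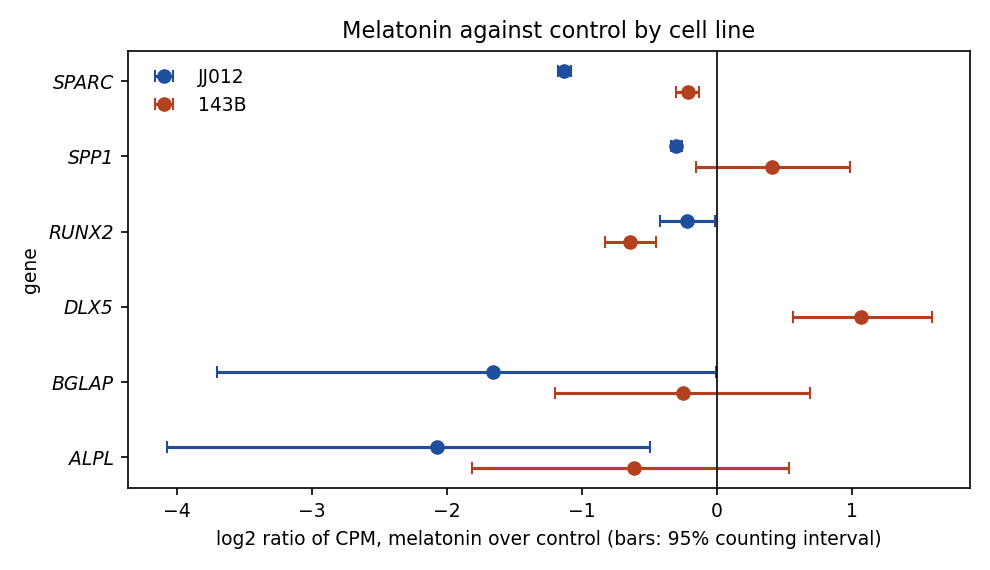
Log2 ratio of CPM, melatonin over control, with 95% counting intervals, in JJ012 (blue) and 143B (orange) for the genes with counts in both libraries of a line. SPARC lies at -1.13 in JJ012 and -0.21 in 143B, DLX5 at 1.07 in 143B, and the intervals of BGLAP and ALPL are the widest.

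The melatonin ratios of the lines share no library and could be subtracted. The difference, 143B less JJ012, was 0.91 for SPARC (interval 0.81 to 1.02), as the lower level after melatonin in JJ012 had no counterpart of that size in 143B. It was 0.70 for SPP1 (interval 0.16 to 1.25) and -0.42 for RUNX2 (interval -0.70 to -0.15). For BGLAP it was 1.29 (interval -0.46 to 3.03) and for ALPL 1.34 (interval -0.47 to 3.15), neither of which can be separated from 0. The remaining 4 genes had too few counts in some library for this difference.

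A fit over the 4 libraries, additive in line and melatonin, leaves 1 residual degree of freedom and so allows a test. It was added after the other values were seen. It tests a melatonin effect common to both lines, and any unequal effect of melatonin counts as error. By edgeR's quasi-likelihood test with Benjamini-Hochberg adjustment, melatonin passed an adjusted p of 0.05 for 0 of the 6 genes tested (0 also at an unadjusted p of 0.05) and for 0.352% of 19301 genes. For SPARC the log2 fold change was -0.68 (adjusted p = 1), lower in both lines. The line effect in the same fit, which takes the control and melatonin libraries of a line as its replicates, passed for 3 of the 6 genes and for 47.9% of all genes. SPP1 was lower in 143B (log2 fold change -7.08, adjusted p = 1.48e-34), SPARC was lower (-1.39, adjusted p = 0.00431) and DLX5 was higher (adjusted p = 1.29e-11).

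Between the untreated lines, SPP1 and SPARC were lower in 143B, and DLX5 was higher. Of 5 genes that passed the filter, 1 was higher and 2 lower, where 68.7% of 16929 genes differed (27.4% higher and 41.3% lower). SPP1 passed the filter only through JJ012, and DLX5 and BGLAP only through 143B, so none of them could differ the other way. The median was 0.39 over the 5 genes and -0.29 over the tested genes, and TMM-scaled CPM put the latter at -0.05. The comparisons between the lines use the same libraries as those of melatonin and add no independent evidence to them.

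SPP1 was 198.8-fold lower in the 143B control than in the JJ012 control (log2 ratio of CPM -7.64, interval -8.09 to -7.22). SPARC was 4.13-fold lower (log2 ratio -2.05, interval -2.11 to -1.98). DLX5 was 19.4-fold higher in the 143B control with 0 counts in JJ012 set to the limit of 3. The lower bound of its log2 ratio with counting error was 3.92, a smaller difference. The osteopontin difference was far larger than that of osteonectin. RUNX2 had a log2 ratio of CPM of 0.50 (interval 0.33 to 0.68) and BGLAP of 0.83 (interval -0.19 to 1.88). Both were under the threshold on the FPKM + 1 scale, and both passed it, higher in 143B, with TPM, TMM-scaled CPM or centering on the median gene. SP7 was 2.21-fold lower in 143B with 0 set to the 3-count limit, from 8 counts against 0, with an interval of the log2 ratio reaching up to -0.50. The interval lay outside 0 for 4 of the 5 tested genes, beside 86% of all tested genes.

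Between the melatonin-treated lines, 2 of 5 genes were higher in 143B and 2 lower, where 62% of 16239 genes differed (23.2% higher and 38.8% lower). The filter was again passed by SPP1 only through JJ012, and by DLX5 and BGLAP only through 143B, which fixed the direction they could take. SPP1 was 121.6-fold lower (log2 ratio of CPM -6.93, interval -7.30 to -6.58) and SPARC 2.19-fold lower (log2 ratio -1.13, interval -1.21 to -1.06). DLX5 was 34.2-fold higher with 0 set to the same limit, and counting error put the lower bound of its log2 ratio at 4.77. BGLAP, with 20 counts against 4, was higher by 0.81 on the FPKM + 1 scale, with an interval for CPM of 0.66 to 4.24. SPP1 and SPARC were the lower and DLX5 the higher genes among the controls too. The median was 0.06 over the 5 genes and -0.28 over the tested genes, and the interval lay outside 0 for 4 of the 5 tested genes, beside 82% of all tested genes.

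**Figure D4:**
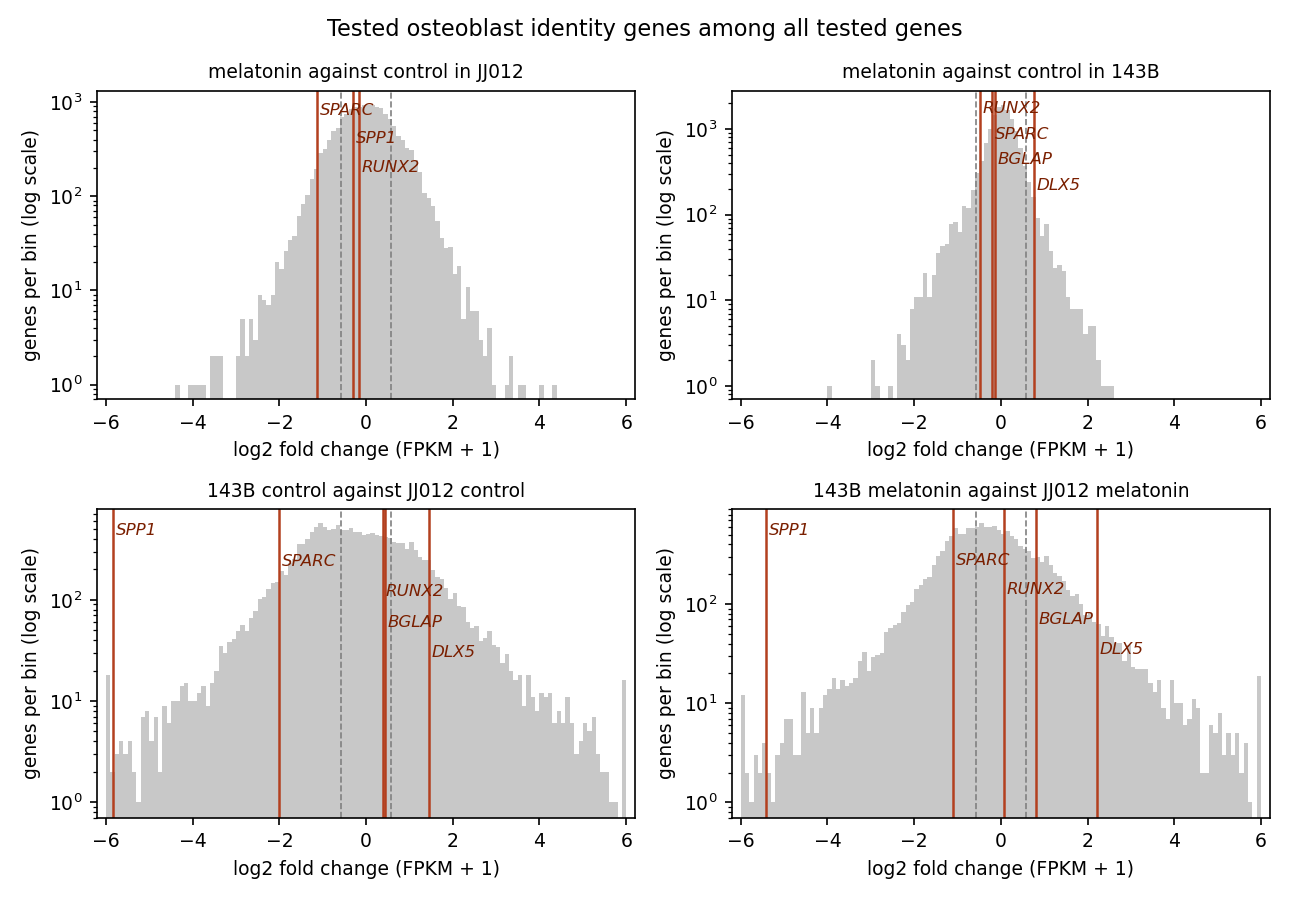
Distribution of log2 fold changes (FPKM + 1) of the tested genes in the 4 comparisons, with gene numbers on a log scale, values beyond 6 drawn at 6, the 0.58 threshold dashed and the tested osteoblast genes as red lines. SPP1 lies at -5.84 between the control libraries and at -5.42 between the melatonin libraries, while RUNX2 lies inside the threshold in each panel.

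The 9 genes share deposited Gene Ontology terms, which follows from their choice as osteoblast genes and is no separate evidence. Osteoblast differentiation was given for 7 of them and for 161 genes of the table, ossification for 4, and the extracellular region for 6. Response to vitamin D was given for ALPL, BGLAP and SPP1, 3 of 15 genes with that term. The terms are annotations of the genes and not measurements in these libraries.

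Genes with a pattern most like SPP1, by the largest difference in centered log2(FPKM + 1) over 4 libraries among 8528 genes, included CSAG1 (0.27) and MAGEC2 (0.27). MAGEC2, a cancer-testis antigen, had 73.88, 52.00, 0.00 and 0.00 FPKM in the order used above. CSAG1 and MAGEC2 were also among the nearest 3 by Euclidean distance. For SPARC the nearest were PXMP2 (0.04) and NDUFA1 (0.05) by both measures. These likenesses rest on 4 libraries and are given as a description.

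Other genes of bone formation were read from lists, which were written with earlier results of these data known. The part of that choice in the shares below was not tested. Of 20 further transcriptional regulators of the osteoblast, 16 passed the filter in JJ012, with 2 higher and 1 lower after melatonin, where 38.2% of all tested genes differed. With TPM, 5 of 19 were higher and 1 lower. TWIST1, a factor that restrains RUNX2, was lower (1808 to 793 counts, log2 fold change -0.91). The AP-1 subunits FOSL1 (0.69) and FOSL2 (0.68) were higher. With the length trend removed, TWIST1 and FOSL2 were under the threshold. In 143B 0 of 14 regulators differed, where 12.7% of all tested genes did, with a median log2 fold change of 0.04. With TPM, 2 of 19 were lower and 0 higher in 143B. DLX5 was past the threshold in the same libraries.

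Among 21 other non-collagen bone matrix genes, 6 of the 9 that passed the filter were lower in JJ012 and 0 higher, with a median log2 fold change of -0.80. MGP, the inhibitor of mineral deposition, went from 2865 counts to 631 (-1.86). POSTN, a matrix protein of the periosteum, had 343 and 28 counts (-1.69), and CLEC11A, an osteogenic growth factor, 2980 and 1096 (-1.17). The 6 of 9 stand beside 18.6% of all tested genes, and with TPM 5 of 12 were lower, with a median of -0.50. Of the lower genes, POSTN (0.32 FPKM after melatonin) and SPARCL1 (0.55 FPKM) passed the filter only through the control, so they could not come out higher. In 143B 2 of 7 were lower and 0 higher, with a median of -0.36, beside 6.65% of all tested genes that were lower. With TPM, CPM or TMM-scaled CPM, 4 of these 7 were lower, with medians of -0.67, -0.66 and -0.65. FN1 (fibronectin) was lower in both lines, from 264572 to 127266 counts in JJ012 (-0.80) and from 19018 to 10272 in 143B (-0.98), though its value in JJ012 fell under the threshold with TPM. BGN (biglycan) was the other lower gene of 143B (-0.64).

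Of 6 collagen and collagen-assembly genes of the osteoblast, 4 passed the filter in JJ012 and 4 were lower after melatonin, with a median of -2.39. COL1A1 (0.77 FPKM after melatonin) and COL1A2 (0.14 FPKM) passed it only through the control, so they could not come out higher. COL1A2, a chain of type I collagen to which SPARC protein binds, went from 2594 counts to 24 (-3.56). COL1A1 went from 1891 to 112 (-2.75) and COL5A1 from 15923 to 3158 (-2.02). In 143B 0 of 3 differed. The shares in JJ012 stand beside the 18.6% of tested genes that were lower there.

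Few mineral-handling genes were past the threshold, and the median of their list in JJ012 was below 0. Of 14 such enzymes and transporters, 7 passed the filter in JJ012, with 2 higher and 0 lower and a median of -0.14. Of all tested genes, 19.6% were higher there. With CPM, 10 passed the filter, of which 3 were higher and 3 lower. SLC20A1, a phosphate transporter, went from 2847 counts to 14885 (2.59). Its relative SLC20A2 was at the threshold (0.58) and fell under it with centering on the median gene, removal of the length trend or a total without mitochondrial genes. In 143B 1 of 7 was higher, the nucleotidase NT5E (1479 to 2621 counts, 0.69), where 6.09% of all tested genes were higher. With CPM in 143B, 3 of 10 were higher and 1 lower.

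Of 10 osteoblast signals to osteoclasts and hormone receptors, 1 of 5 was higher in JJ012, the macrophage colony-stimulating factor CSF1 (4933 to 15336 counts, 1.87). The median of the 5 was -0.15, and 19.6% of all tested genes were higher. With CPM, 1 of 7 was higher and 3 lower in JJ012, and with TMM-scaled CPM 1 of 7 was higher and 2 lower. In 143B 2 of 4 were higher, EFNB2 (449 to 1068 counts, 1.01) and SEMA3A (140 to 395 counts, 0.84), where 6.09% of all tested genes were higher. SEMA3A, at 0.95 FPKM in the control, passed the filter only through the melatonin library and could not come out lower. Of 9 receptors for SPP1 and IBSP, 6 passed the filter in JJ012. There the integrin subunit ITGB3 was higher (0.64, under the threshold with the length trend removed) and ITGB5 lower (-0.64, under the threshold with TPM or TMM-scaled CPM). In 143B 0 of 7 receptors differed, and the receptor genes summed to between 294.23 and 389.48 FPKM over the 4 libraries, including the 143B libraries, where SPP1 itself had 46 and 66 counts. Of 8 osteocyte genes, 1 of 2 was lower in JJ012, the actin-capping CAPG (2016 to 393 counts, -2.00), and 0 of 2 differed in 143B. The receptor and osteocyte counts stand beside 38.2% of all tested genes that differed in JJ012 (18.6% lower) and 12.7% in 143B.

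**Figure D5:**
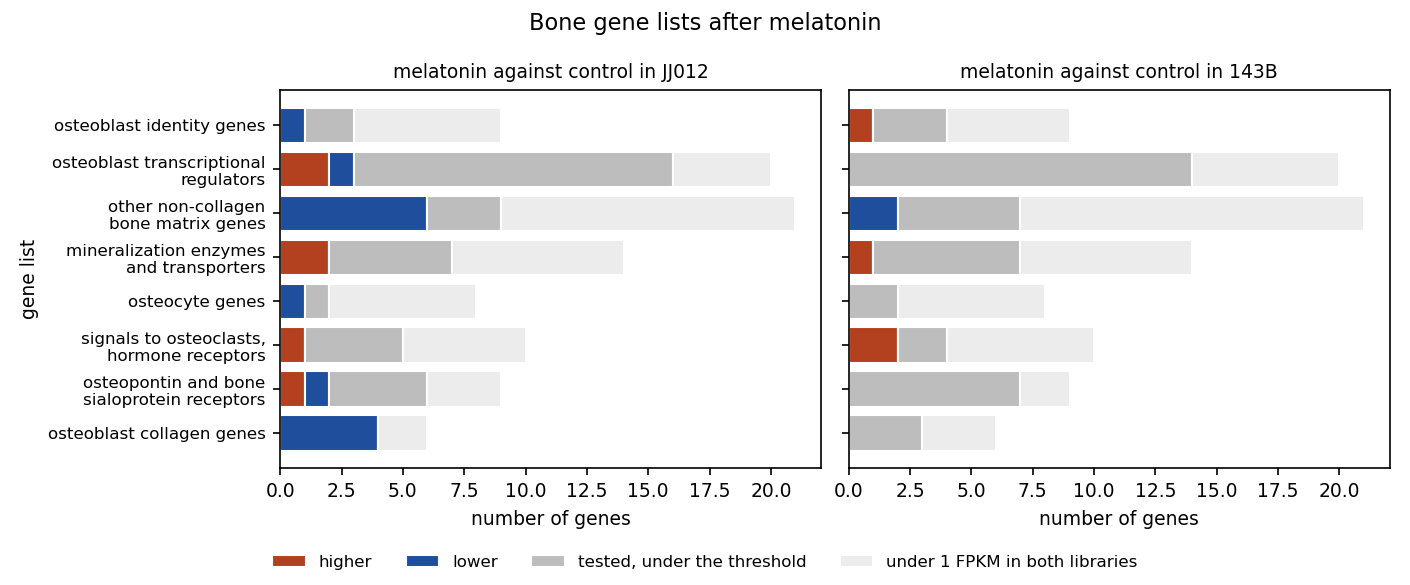
Number of genes in each bone list that were higher, lower, tested but under the threshold, or below 1 FPKM in both libraries, after melatonin in JJ012 (left) and 143B (right). In the matrix list 6 of 21 and in the collagen list 4 of 6 are lower in JJ012, while 2 of 21 and 0 of 6 are lower in 143B. The lists were written with earlier results of these data known.

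Markers of other cell types were measured beside these lists. Of 16 chondrocyte markers, 4 passed the filter in JJ012 and 4 were lower after melatonin, SOX9 among them, beside 18.6% of all tested genes. COL9A3 (0.68 FPKM after melatonin) and COL11A2 (0.61 FPKM) passed it only through the control, so they could not come out higher. The list summed to 26.92 FPKM in the JJ012 control and 9.66 FPKM after melatonin. COL2A1, the main cartilage collagen, had 0 counts in both JJ012 libraries and 2 and 5 in 143B, and ACAN had 4, 3, 19 and 14. In 143B the chondrocyte list summed to 85.01 and 73.72 FPKM, with COL9A3 alone at 62.47 and 53.93 FPKM. There 0 of 3 tested genes were past the threshold, beside 12.7% of all tested genes. COL2A1 and ACAN were therefore at or near 0 in the line named as a chondrosarcoma. In its control, SOX9 (15.06 FPKM), COL9A2 (4.86 FPKM), COL9A3 (3.18 FPKM) and COL11A2 (1.67 FPKM) were expressed. In the 143B control they were at 15.48, 4.39, 62.47 and 0.52 FPKM in the same order, so expression of SOX9, COL9A2 and COL9A3 was not particular to JJ012. In JJ012 these expressed markers were lower in the same library as SPARC.

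The counts of markers that follow stand beside 38.2% of all tested genes that differed in JJ012 and 12.7% in 143B. Osteoclast markers summed to 32.76 and 21.69 FPKM in JJ012 (1 higher and 3 lower of 4 tested) and 190.33 and 248.77 FPKM in 143B (0 of 5, and 2 lower of 5 with TPM, CPM or TMM-scaled CPM), where MMP9 led. Adipocyte markers summed to 1.61 and 1.53 FPKM in JJ012 (0 of 1) and 16.11 and 11.46 FPKM in 143B (1 lower of 2). Skeletal muscle markers summed to 5.40 and 2.06 FPKM in JJ012 (2 lower of 2), and to 0.04 and 0.28 FPKM in 143B with 0 tested. Epithelial markers summed to 23.31 and 15.00 FPKM in JJ012 (2 lower of 4) and 47.12 and 33.15 FPKM in 143B (1 lower of 3), and KRT18 was lower in both lines. In JJ012, the muscle marker DES (0.62 FPKM after melatonin) and the epithelial marker KRT19 (0.03 FPKM) passed the filter only through the control. Blood cell markers summed to 14.49 and 6.40 FPKM in JJ012 (1 lower of 2) and 0.96 and 1.24 FPKM in 143B (0 of 1). Lower summed levels of markers of other cell types thus accompanied the lower SPARC in JJ012. Their part in the results was not tested.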

How the data were processed

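The authors deposited whole-number counts and FPKM per gene for 4 libraries, with gene positions and exonic lengths. FPKM equalled the deposited counts divided by exonic length and library total, within 0.005. Per the submitters' processing notes, cutadapt 1.9.1, HISAT2 2.2.1, HTSeq 0.6.1, DESeq2 and hg38 were used. The strand setting, the annotation release and the counted unit (read or pair) are not given in the sources used here. A T after the name of the line in a column was taken to mean melatonin. Poly(A) selection leaves out RNA without a tail, and FPKM depends on the length assigned to a gene.

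Members and lists were chosen with earlier results of these data known. To log-transform, 1 was added to FPKM. Genes reaching 1 FPKM in either compared library were tested, at a threshold of 0.58. Exact (Clopper-Pearson) 95% intervals of the ratio of CPM came from the counts. The interval of the difference between the lines used a normal approximation on the log scale. Since edgeR's quasi-likelihood test needs residual degrees of freedom, it could not be run on single comparisons. With edgeR 4.0.16 (R 4.3.3), TMM factors were computed and the test was run once on the counts, in a fit additive in line and melatonin over genes kept by filterByExpr. Other steps used Python 3.11.15, numpy 2.4.6, pandas 2.3.3 and scipy 1.17.1, and were checked on simulated data. Alternatives were another pseudocount, filter, threshold, scaling, centering, length trend or library total. From each of 13 further lists, up to 3 genes past the threshold with the largest change per comparison were named, plus any past it in the same direction in both lines. Some chondrocyte markers were named for their level. Promoters came from RefSeq (GRCh38.p14), where SP7 and DLX5 had no entry, and gene types and merged exon lengths from GENCODE 29. Protein sequences were not used here. Some genes near SPP1 or SPARC in pattern are not reported here.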

Additional observations from a re-analysis of the deposited data

How the results depend on the processing

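With 1 library per group, leaving one out removes a comparison, and no such values are given. Pairing control with melatonin by line is the additive fit, in which 0 of 6 osteoblast genes passed for melatonin. Of 127 alternative values of single genes with a finite counting interval, 98 stayed within its half-width, 29 moved beyond it and 0 called values changed sign. DLX5 between the lines has no finite interval and ran from 1.45 to 4.19 between the controls and from 2.21 to 5.22 between the melatonin libraries. In JJ012, the median of the tested osteoblast genes was -0.71 with a filter of 5 FPKM, -0.74 with TPM, -0.50 with CPM, -0.22 with TMM-scaled CPM and -0.48 with the length trend removed, and the number past the threshold was 3 with TPM and 2 with CPM, as ALPL and BGLAP then passed the filter or ALPL alone did. In 143B, 2 genes were past the threshold with a pseudocount of 0.1 FPKM, TPM, CPM or TMM-scaled CPM, since RUNX2 joined DLX5, and 0 with a filter of 5 FPKM or a threshold of 1. Between the controls, 5 genes were past it with TPM, centering or TMM-scaled CPM, and the median was -0.076 with no filter, -3.93 with a filter of 5 FPKM and 0.68 with centering. Between the melatonin libraries, a filter of 5 FPKM left 2 genes past it, and the median was -3.26 with that filter, 0.36 with TPM, 0.35 with centering or TMM-scaled CPM and 0.30 with the length trend removed. A changed filter alters which genes are tested, and other causes were not tested. The ratio of SPP1 to SPARC in the JJ012 control was 2.07 with GENCODE 29 lengths, an alternative chosen after seeing the data. Depth limits SP7, IBSP, DMP1, ALPL and BGLAP, which had 22 counts or fewer in any library.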
